A study of Mus musculus with 11 samples.

Results

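Amino acids and many neurotransmitters cross membranes only through transporters, and 67 genes of 8 such families were followed in basal progenitors sorted from mouse embryonic cortex. The genes were taken by symbol, as every probe named Slc1a, Slc3a, Slc6a, Slc7a, Slc17a, Slc36a, Slc38a or Slc43a followed by a digit, which gave 136 of the 45281 probes of a bead array. Embryonic day 16 (E16, 5 arrays) was set against embryonic day 13 (E13, 6 arrays). Each array was 1 embryonic cortex, read here as wild type from the WT at the end of its raw column label, with 3 litters behind each stage. Basal progenitors divide in the layers above the ventricular lining and give rise to neurons. The sort's marker, the mouse strain and each embryo's litter are not stated in the labels. One symbol taken by the rule, Slc7a6os, belongs to a gene named for lying opposite Slc7a6 and is not itself a transporter.

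The families divide the work of amino acid handling. Slc1a, Slc6a and Slc38a proteins mostly use the sodium gradient to carry glutamate, transmitters and neutral amino acids into the cell. Some Slc7a proteins exchange one amino acid for another, many of these only when paired with the heavy chain Slc3a2, and others carry cationic amino acids. Slc43a proteins let large neutral amino acids pass without sodium, Slc36a proteins move small amino acids with protons, and Slc17a includes the transporters that load glutamate into synaptic vesicles. In the embryonic cortex glutamate uptake is best known from radial glia, the apical stem cells, and vesicular glutamate loading from excitatory neurons.

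Probes entered the comparison with a detection p-value under 0.05 on 5 or more arrays, and 53 of the 136 probes (39.0%) were kept, against 20599 of all 45281 probes (45.5%), and the difference between these shares was not tested. The kept probes covered 33 genes, 25 of them detected on all 11 arrays. The other 34 genes were not kept, and 25 of them had no probe detected on any array. Among these were Slc1a5, a carrier of glutamine, with 5 probes, and Slc7a1, a carrier of arginine and lysine, with 2 probes. They also included Slc38a3, which moves glutamine, and Slc17a8, a vesicular glutamate transporter. The rest of the undetected genes were Slc17a1, Slc17a2, Slc17a3, Slc17a4, Slc17a9, Slc36a1, Slc38a8, Slc38a11, Slc43a3, Slc6a2, Slc6a5, Slc6a12, Slc6a13, Slc6a14, Slc6a18, Slc6a20a, Slc6a20b, Slc6a21, Slc7a9, Slc7a12 and Slc7a15. A further 9 genes were detected on 1 to 3 arrays by their best probe. These were Slc1a7, Slc6a3 and Slc7a2 on 3 arrays, Slc36a2 and Slc38a5 on 2, and Slc36a3, Slc6a4, Slc6a7 and Slc7a11 on 1. No Slc36a gene was therefore compared between the stages. Slc3a1, Slc7a5 and Slc38a6 were not analysed here.

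Each array detected between 19731 and 20604 probes, and the mean raw intensity of an array lay between 349 and 481. Markers of other cells moved with the stage, alongside all of the differences given here. The 6 measured Cajal-Retzius markers, genes of early-born neurons of the marginal zone, were all lower at E16, with a summed normalized intensity per array of 2790 to 5281 at E16 and 12023 to 18354 at E13. Red cell markers summed to 1233 to 3996 at E16 and 147 to 1631 at E13, and 2 of the 4 measured (Hba-a1 and Hbb-bt) were higher. Of the 12 measured basal progenitor markers 10 were lower and 1 was higher at E16. Interneuron markers summed to 406 to 617 at E16 and 530 to 1440 at E13, with 1 of 8 higher and 3 lower. Choroid plexus and hem markers, genes of the cortical midline, summed to 117 to 157 at E16 and 237 to 438 at E13, and the 3 measured of 10 (Otx2, Rspo2 and Lmx1a) were all lower. Of the 3 measured oligodendrocyte lineage markers Olig1 was higher at E16, by 1.32 on the log2 scale, and the list summed to 271 to 383 at E16 and 262 to 327 at E13. Endothelial markers summed to 1035 to 1300 at E16 and 1073 to 1339 at E13. The 3 measured of 13 (Slc2a1, Mfsd2a and Esam) were detected on every array and did not pass. Pecam1, Cdh5 and Cldn5 were among those detected on no array. Microglial, mural and meningeal markers were mostly undetected. The part of these cells in the transporter differences was not tested, and in sorted bulk samples fewer cells of a type and less RNA per cell cannot be told apart.

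Of the 33 transporter genes compared, 10 were higher and 5 were lower at E16, and 18 did not pass. Over all 10568 genes tested 27.1% passed, 13% higher and 14.1% lower (limma, Benjamini-Hochberg adjusted p under 0.05). A gene was represented by its brightest kept probe, and differences are E16 minus E13 in normalized log2 intensity. The median difference was 0.12 over the 33 genes and -0.01 over all genes. The 33 genes do not stand for the whole list of 67, since the other 34 were detected on too few arrays to be compared. The filter would let a gene detected at 1 stage only enter through that stage. By their brightest probe 0 of the 33 were of this kind, though Slc6a11 entered chiefly through E16. For 9 of the 33 genes the stages were fully apart, against 17% of all genes. In 5 every E16 array was above every E13 array (8.16% of all genes) and in 4 every one was below (8.8% of all genes). Differences of at least 1 on the log2 scale with a call were found for 5 of the 33, where the share over all genes was 4.94%. Only Slc1a3 of these 5 was higher at E16, and Slc1a2, Slc7a10, Slc17a7 and Slc43a1 were lower. Centring each array on its median in place of quantile normalization gave 8 higher and 6 lower transporter genes, and 966 higher and 1616 lower among all genes, against 1373 and 1495.

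**Figure D1:**
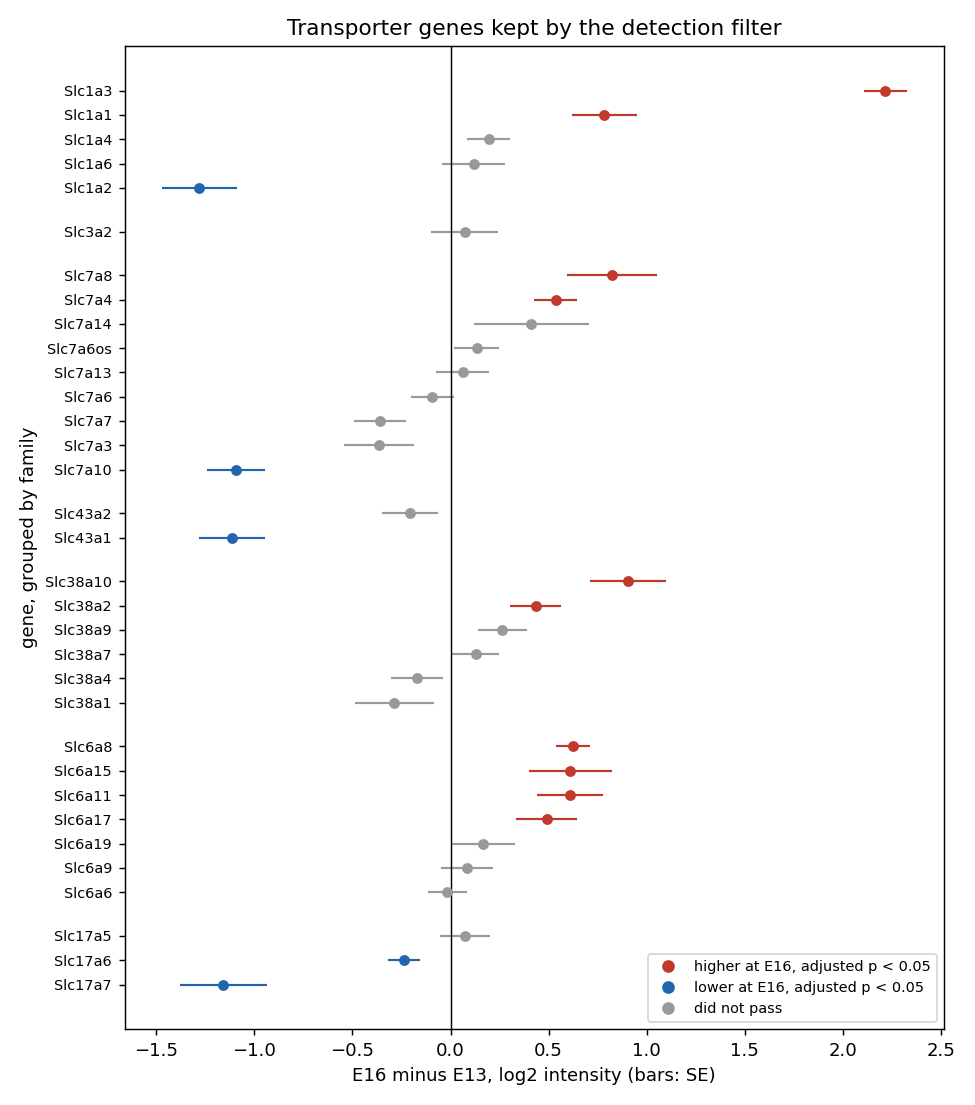
Difference in normalized log2 intensity, E16 minus E13, with its standard error (bars), for the 33 transporter genes with a kept probe, grouped by family from top to bottom. Slc1a3 lies farthest to the right at 2.22 and Slc1a2 farthest to the left at -1.28, and both belong to the same family.

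Glutamate transporters of the plasma membrane moved apart. Slc1a3, also called GLAST, takes up glutamate and is a marker of radial glia and astrocytes. At E16 the arrays gave Slc1a3 log2 intensities of 10.18, 10.09, 9.89, 10.12 and 10.13, and at E13 the lowest was 7.58, the median 7.89 and the highest 8.08. The 5 E16 arrays lay close together and far above every E13 array. Slc1a3 rose by 2.22 in log2 units (SE 0.108, adjusted p = 1.58e-08), a 4.65-fold change. It is carried by 1 probe, and its difference lay between 2.06 and 2.30 under all 24 alternative ways of processing. It was also among the 12 measured radial glia markers, of which 4 were higher and 3 lower at E16.

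Slc1a1, the glutamate and cysteine transporter of neurons, rose as well. The log2 intensity of Slc1a1 was 9.07, 9.39, 9.31, 9.57 and 9.68 at E16, and ran from 8.12 to 8.94 at E13 with a median of 8.75. The stages did not overlap, although E16 replicate 1 was only just above the highest E13 array. The increase was 0.78 in log2 units (SE 0.165, adjusted p = 0.00238), and a second probe, detected on 5 of 5 E16 and 3 of 6 E13 arrays, gave 0.71 (adjusted p = 0.0134 over probes).

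Slc1a2, the main glutamate transporter of mature astrocytes, went the other way. Slc1a2 read log2 intensities of 5.11, 4.93, 5.69, 5.24 and 5.62 on the 5 E16 arrays, against 6.14, 6.49 and 7.23 as the lowest, median and highest of the 6 E13 arrays. Every E16 array was below every E13 array, and 3 of 5 E16 arrays detected the probe. The lowest detected signal of an array lay between 5.09 and 5.19 on the log2 scale. Slc1a2 fell by 1.28 in log2 units (SE 0.192, adjusted p = 0.000157). A second probe, detected on all arrays, gave -0.72 (adjusted p = 0.00288 over probes), and the other 3 probes of the gene were detected on no array. E13 replicate 1, which held the highest summed Cajal-Retzius and interneuron markers of its stage, had the highest Slc1a2 value. Without it and E16 replicate 3 the difference was -1.25, adjusted p = 0.000204, and a link to these markers was not tested. Raising the offset added before log2 to 50 gave the smallest difference among the alternatives, -0.82, with the call kept.

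The other Slc1a genes did not pass. Slc1a4, which exchanges serine, alanine and other small neutral amino acids, differed by 0.19 in log2 units (SE 0.109, adjusted p = 0.21) and ranged from 9.22 to 9.60 at E16 and from 8.82 to 9.31 at E13. Slc1a6, a glutamate transporter known from Purkinje cells, was near the detection limit at both stages, detected on 4 of 5 E16 and 3 of 6 E13 arrays, and differed by 0.12 (SE 0.161). Over the 5 kept Slc1a genes, 2 rose, 1 fell and 2 did not pass.

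**Figure D2:**
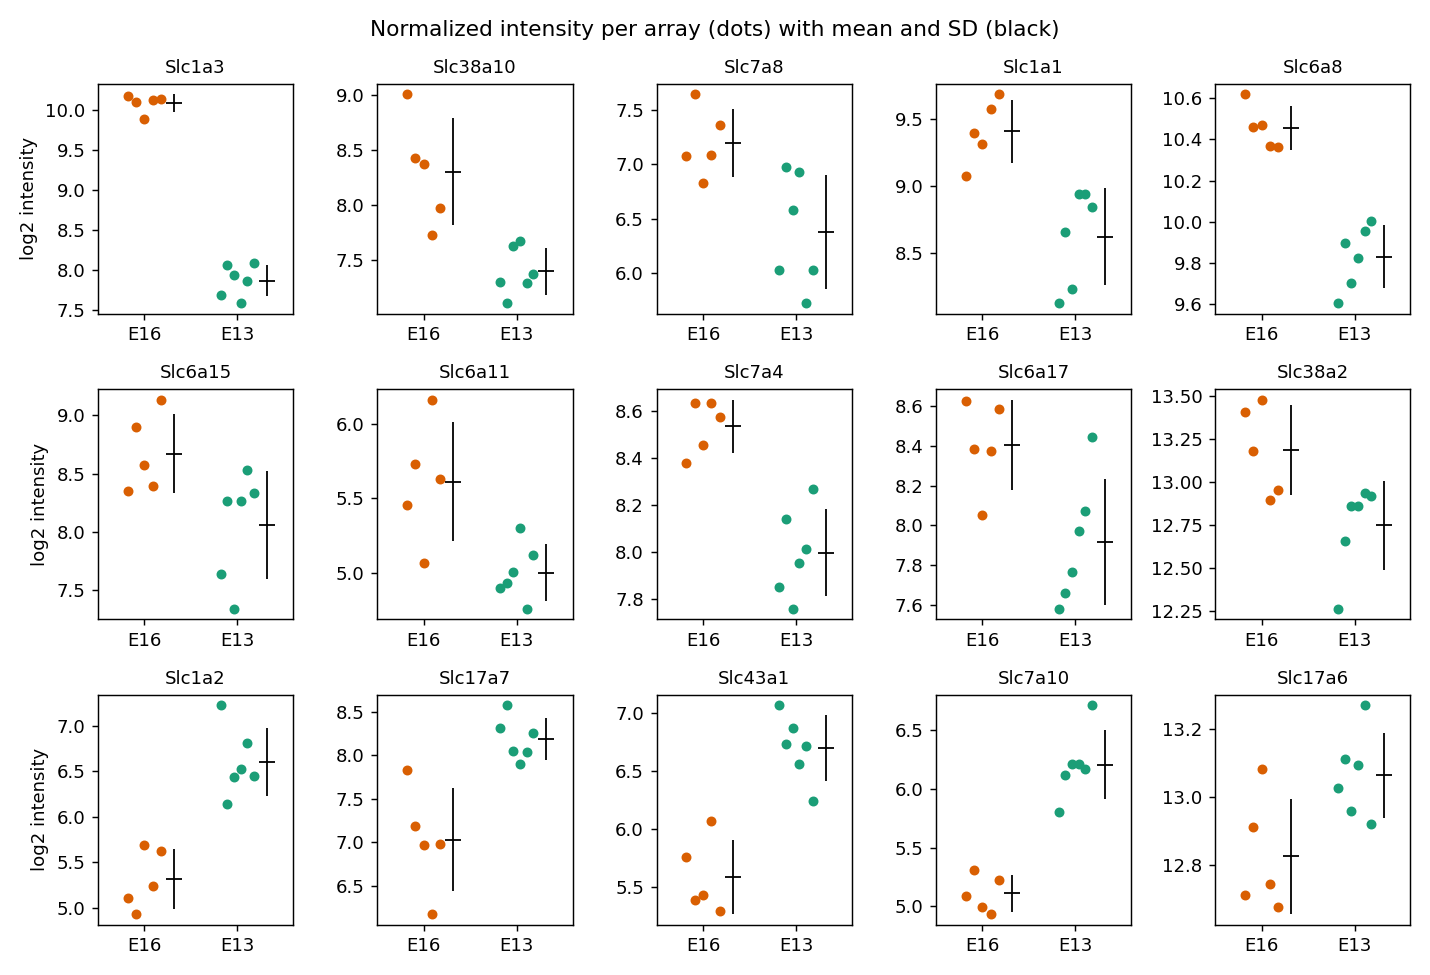
Normalized log2 intensity on each array (dots, E16 left and E13 right) with the mean and SD of each stage (black) for the 15 transporter genes that passed, 10 higher at E16 in the upper panels and 5 lower in the lowest row. Each panel has its own scale that does not start at 0. The Slc1a3 stages lie far apart, while the Slc17a6 and Slc6a17 stages overlap.

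Vesicular glutamate transporters were lower at E16. Slc17a7 and Slc17a6 load glutamate into the synaptic vesicles of excitatory neurons, with Slc17a7 typical of the mature cortex. At E16 the arrays gave Slc17a7 log2 intensities of 7.83, 7.19, 6.97, 6.17 and 6.98, and at E13 the lowest was 7.90, the median 8.16 and the highest 8.58. All E16 arrays were below all E13 arrays, with E16 replicate 1 just under the E13 range and E16 replicate 4 below the rest. Slc17a7 fell by 1.16 in log2 units (SE 0.224, adjusted p = 0.00129). The log2 intensity of Slc17a6 was 12.71, 12.91, 13.08, 12.74 and 12.68 at E16, and ran from 12.92 to 13.27 at E13 with a median of 13.06. Here the stages overlapped, and E16 replicate 3 was above the E13 median. Slc17a6 fell by 0.24 in log2 units (SE 0.0836, adjusted p = 0.0469), and this call was lost under 14 of the 24 alternatives, with adjusted p up to 0.138. A second Slc17a6 probe gave -0.30 (adjusted p = 0.0257 over probes). Slc17a5, the lysosomal exporter of sialic acid, differed by 0.07 (SE 0.126).

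Exchangers of the Slc7a family depend in part on the heavy chain Slc3a2, which did not pass. Slc3a2 ranged from 5.93 to 6.64 at E16 and from 5.77 to 6.66 at E13, a difference of 0.07 in log2 units (SE 0.17, adjusted p = 0.796). Of its known light chains among the kept genes, Slc7a8 rose, Slc7a10 fell, and Slc7a6 and Slc7a7 did not pass. Slc7a8 exchanges large and small neutral amino acids. Slc7a8 read log2 intensities of 7.07, 7.65, 6.83, 7.08 and 7.36 on the 5 E16 arrays, against 5.72, 6.31 and 6.97 as the lowest, median and highest of the 6 E13 arrays. The lowest E16 array lay inside the E13 range, which was wide. Slc7a8 rose by 0.82 in log2 units (SE 0.229, adjusted p = 0.0147), and its second probe, detected on 5 of the 11 arrays, gave 0.34 (adjusted p = 0.175 over probes).

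Slc7a10 exchanges small neutral amino acids, glycine and D-serine among them. At E16 the arrays gave Slc7a10 log2 intensities of 5.09, 5.31, 4.997, 4.93 and 5.22, and at E13 the lowest was 5.80, the median 6.19 and the highest 6.71. All E16 arrays were below all E13 arrays and near the detection limit, with 2 of 5 E16 arrays detecting the probe. Slc7a10 fell by 1.09 in log2 units (SE 0.147, adjusted p = 6.04e-05). The E16 mean of 5.11 lay within the range of the lowest detected signals, so the size of the difference is uncertain, and with an offset of 50 it was -0.66.

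Slc7a6 and Slc7a7 exchange cationic for neutral amino acids. Slc7a6 differed by -0.09 (SE 0.111), and the neighbouring Slc7a6os by 0.13 (SE 0.114). Slc7a7 ranged from 5.13 to 5.66 at E16 and from 5.54 to 5.97 at E13, and differed by -0.36 in log2 units (SE 0.132, adjusted p = 0.0551). It passed under 6 of 22 alternatives, with differences between -0.47 and -0.36. Its other kept probes gave -0.14 and -0.05.

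Of the remaining family members, Slc7a4 rose. Slc7a4 resembles the cationic amino acid transporters, though its own substrate is less settled. The log2 intensity of Slc7a4 was 8.38, 8.63, 8.46, 8.63 and 8.58 at E16, and ran from 7.76 to 8.27 at E13 with a median of 7.98. Every E16 array was above every E13 array, and the increase was 0.54 in log2 units (SE 0.11, adjusted p = 0.00205). Slc7a3, a carrier of arginine and lysine, differed by -0.36 (SE 0.177) and was detected on 3 of 5 E16 and 6 of 6 E13 arrays. It passed without E16 replicate 3 (-0.50, adjusted p = 0.0397). Slc7a14, a relative found on lysosomes, differed by 0.41 (SE 0.291) with 1 E16 array, replicate 5, at 6.97 and the others between 5.10 and 5.81. Slc7a13 differed by 0.06 (SE 0.134). Of the 9 kept Slc7a symbols 2 rose, 1 fell and 6 did not pass.

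Slc43a1, a facilitator for leucine and other large neutral amino acids, was lower at E16. Slc43a1 read log2 intensities of 5.75, 5.38, 5.42, 6.07 and 5.29 on the 5 E16 arrays, against 6.24, 6.72 and 7.07 as the lowest, median and highest of the 6 E13 arrays. The stages did not overlap, and this probe was detected on all 11 arrays. Slc43a1 fell by 1.11 in log2 units (SE 0.17, adjusted p = 0.000185). A dimmer second probe, seen on 0 of 5 E16 and 5 of 6 E13 arrays, was at least 1.16-fold lower at E16. It passed the filter through E13 alone, so the bound is a description. Slc43a2, a relative with similar substrates, differed by -0.21 (SE 0.144).

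Of the 6 kept Slc38a genes, carriers of glutamine and other neutral amino acids, 2 rose and 4 did not pass. Slc38a10 is one of the less studied members and is linked to glutamine and glutamate. At E16 the arrays gave Slc38a10 log2 intensities of 9.01, 8.43, 8.37, 7.74 and 7.98, and at E13 the lowest was 7.11, the median 7.34 and the highest 7.68. Replicate 1 was the highest E16 array and replicate 4 the lowest, close to the top of the E13 range. By its brightest probe Slc38a10 rose by 0.90 in log2 units (SE 0.192, adjusted p = 0.00254). The probes disagreed in size, though each was detected on all 11 arrays. The second gave 0.40 (adjusted p = 0.0603 over probes) and the remaining one -0.01 (adjusted p = 0.96 over probes), so the call holds for 1 of 3 probes. The mean of the 3 probes gave 0.43, with the call kept.

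Slc38a2, the glutamine carrier that cells raise when amino acids run short, rose by 0.43 in log2 units (SE 0.131, adjusted p = 0.0229). The log2 intensity of Slc38a2 was 13.41, 13.18, 13.48, 12.90 and 12.95 at E16, and ran from 12.26 to 12.93 at E13 with a median of 12.86. All E16 arrays but replicate 4 were above all E13 arrays, and E13 replicate 1 was the lowest. A second probe gave 0.12 (adjusted p = 0.502 over probes). The call was lost under 5 of 24 alternatives, among them the fit without E16 replicate 3 (adjusted p = 0.0669) and the mean of the kept probes (0.0877). Slc38a9, the lysosomal carrier that reports arginine to the growth kinase complex mTORC1, differed by 0.26 in log2 units (SE 0.126, adjusted p = 0.137), and passed without E16 replicate 4 (0.37, adjusted p = 0.0232). Slc38a1, another carrier of glutamine in neurons, differed by -0.29 in log2 units (SE 0.203, adjusted p = 0.327), and its 3 probes gave -0.286, -0.295 and -0.239. It passed without E16 replicate 5 (-0.48, adjusted p = 0.0451), which was its highest E16 array at 8.41. Slc38a7, a lysosomal glutamine exporter, differed by 0.13 (SE 0.121) and Slc38a4 by -0.17 (SE 0.131).

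Of the 7 kept Slc6a genes 4 rose and 0 fell in limma, where 13% of all genes rose and 14.1% fell, and 0 were lower at an unadjusted p under 0.05. The other 3 did not pass, with Slc6a19, a neutral amino acid carrier of gut and kidney, at 0.17 (SE 0.164), the glycine transporter Slc6a9 at 0.08 (SE 0.131) and the taurine transporter Slc6a6 at -0.02 (SE 0.100). Of the 4 that rose, Slc6a15 and Slc6a17 lost the call under 11 and 8 of 24 alternatives, and Slc6a11 was kept chiefly through E16. Slc6a8 imports creatine, a store of phosphate energy. Slc6a8 read log2 intensities of 10.62, 10.46, 10.47, 10.37 and 10.36 on the 5 E16 arrays, against 9.60, 9.86 and 10.01 as the lowest, median and highest of the 6 E13 arrays. All E16 arrays were above all E13 arrays, and both groups were narrow. Slc6a8 rose by 0.62 in log2 units (SE 0.0885, adjusted p = 9.81e-05).

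Slc6a15 and Slc6a17 carry neutral amino acids such as leucine and proline in neurons, Slc6a17 on synaptic vesicles. At E16 the arrays gave Slc6a15 log2 intensities of 8.35, 8.90, 8.58, 8.40 and 9.14, and at E13 the lowest was 7.34, the median 8.26 and the highest 8.54. The stages overlapped, with E13 replicates 1 and 3 low. Slc6a15 rose by 0.61 in log2 units (SE 0.211, adjusted p = 0.0439), and lost the call under 11 of 24 alternatives. A second probe, detected on all arrays, gave -0.05 (adjusted p = 0.766 over probes), while another one was seen on 5 of 5 E16 but 0 of 6 E13 arrays. That probe was at least 1.84-fold higher at E16, but it passed the filter through E16 alone, so the bound is a description. The log2 intensity of Slc6a17 was 8.63, 8.38, 8.05, 8.38 and 8.59 at E16, and ran from 7.58 to 8.45 at E13 with a median of 7.87. The values of E13 replicates 5 and 6 reached into the E16 range. Slc6a17 rose by 0.49 in log2 units (SE 0.157, adjusted p = 0.0307) and by 0.56 (adjusted p = 0.0274 over probes) with a second probe, and the gene's call was lost under 8 of 24 alternatives.

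Slc6a11 takes up GABA, the main inhibitory transmitter, and is known from astrocytes. Slc6a11 read log2 intensities of 5.46, 5.73, 5.07, 6.16 and 5.63 on the 5 E16 arrays, against 4.76, 4.97 and 5.30 as the lowest, median and highest of the 6 E13 arrays. The probe was dim, detected on 4 of 5 E16 arrays and 1 of 6 E13 arrays, and the groups overlapped at E16 replicate 3. Slc6a11 rose by 0.61 in log2 units (SE 0.169, adjusted p = 0.0145). It was kept by the filter chiefly through E16, and its E13 mean lay below the lowest detected signal of the arrays, so the size of the difference is uncertain. With an offset of 50 it was 0.34. Slc6a12 and Slc6a13, which also take up GABA, were detected on no array.

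**Figure D3:**
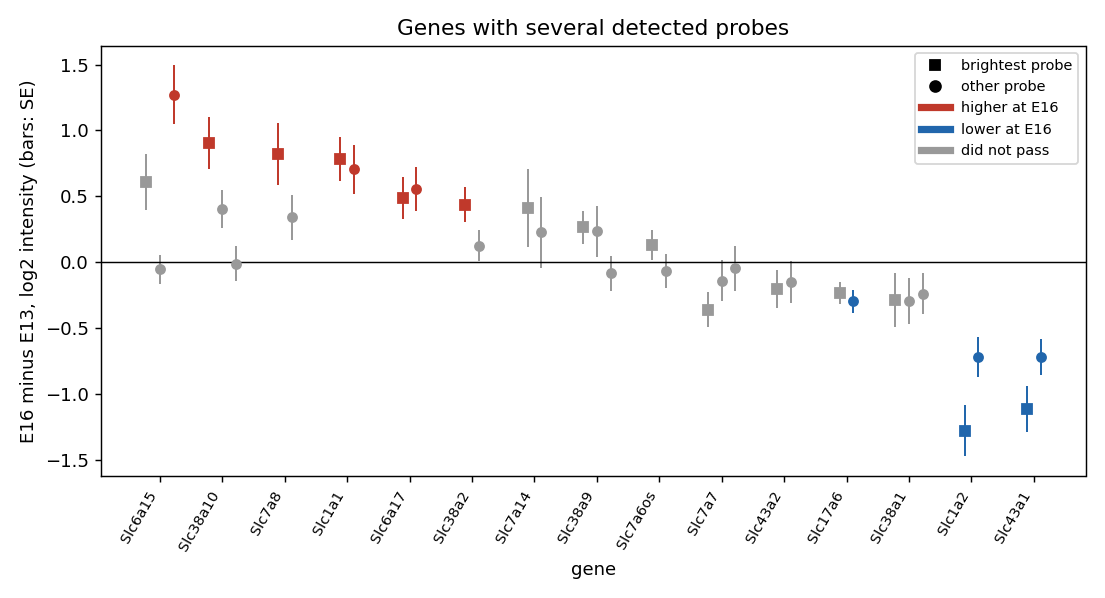
Difference in normalized log2 intensity, E16 minus E13, with standard error, for each kept probe of the 15 genes with several kept probes, coloured by the test over all 20599 kept probes. Squares are the brightest probe. Both probes of Slc1a1, Slc1a2 and Slc6a17 passed in 1 direction, while Slc6a15 and Slc38a10 have probes near 0.

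Probes of a gene were compared more widely. Of all 20599 kept probes, tested one by one, 22.6% passed, and of the 53 kept transporter probes 19 passed. These 19 include a probe of Slc6a15 and a probe of Slc43a1 that entered the filter only through the stage where they were brighter. Among the 15 genes with several kept probes, 35 probes in all, 0 had probes that passed in opposite directions, and 5 had both a probe that passed and a probe that did not. These 5 were Slc17a6, Slc6a15, Slc7a8, Slc38a2 and Slc38a10. For Slc6a15 the probe that passed was the one detected at E16 alone, and its brightest probe did not pass (adjusted p = 0.0546 over probes).

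Genes that make, sense or respond to amino acids were set beside the transporters, by lists of pathway members. The list counts stand against 13% higher and 14.1% lower over all genes. In the list for amino acid synthesis and glutamine breakdown 3 of 11 measured genes fell and 1 rose, with a median difference of -0.12. The genes that fell make serine or use it to make glycine. Phgdh, the first enzyme of serine synthesis, averaged a log2 intensity of 6.32 ± 0.212 (SD, n = 5) at E16 and 7.03 ± 0.232 (SD, n = 6) at E13 and fell by 0.71 in log2 units (SE 0.141, adjusted p = 0.00157). Psat1, the next enzyme of that path, averaged a log2 intensity of 8.97 ± 0.172 (SD, n = 5) at E16 and 9.60 ± 0.128 (SD, n = 6) at E13 and fell by 0.64 in log2 units (SE 0.0987, adjusted p = 0.000214). Shmt2, which turns serine into glycine in mitochondria, fell by 0.36 in log2 units (SE 0.0921, adjusted p = 0.00949). For Phgdh, Psat1 and Shmt2 all E16 arrays were below all E13 arrays. Aldh18a1, an enzyme of proline synthesis, rose by 0.33 in log2 units (SE 0.0893, adjusted p = 0.0128) and lost the call with median centring (0.29, adjusted p = 0.064) and with the replicate number as a block (0.31, adjusted p = 0.057).

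The list for the response to amino acid shortage, driven by the transcription factor ATF4, went both ways, with 3 of 10 measured genes lower, 2 higher and a median of -0.26. Sesn2, a leucine sensor that 3 of 5 E16 arrays detected, fell by 0.85 in log2 units (SE 0.145, adjusted p = 0.000479). Chac1, which degrades glutathione, fell by 0.57 in log2 units (SE 0.155, adjusted p = 0.0129) and the factor Atf5 by 0.52 in log2 units (SE 0.109, adjusted p = 0.0023). The receptor gene Vldlr rose by 0.55 in log2 units (SE 0.114, adjusted p = 0.00225), and Ddit4, an inhibitor of mTORC1, rose by 0.47 (SE 0.0867, adjusted p = 0.000847). Atf4 itself differed by 0.04 (SE 0.0988).

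In the list for amino acid sensing by mTORC1 8 of 25 measured genes rose, 1 fell and 16 did not pass, with a median of 0.09, against 13% higher and 14.1% lower over all genes. Sesn3, a relative of Sesn2 that 3 of 5 E16 arrays detected, fell by 1.08 in log2 units (SE 0.137, adjusted p = 3.79e-05). Rragb, one of the small GTPases that recruit mTORC1 to the lysosome, rose by 0.45 in log2 units (SE 0.0958, adjusted p = 0.00259), and Wdr59, a subunit of the complex that acts upstream of these GTPases, by 0.45 in log2 units (SE 0.121, adjusted p = 0.0124). Rragd rose by 0.65 in log2 units (SE 0.223, adjusted p = 0.0439), a call lost under 13 of 24 alternatives. Slc38a9, which acts in this path as a transporter, did not pass. The list was not divided into genes that promote and genes that restrain mTORC1, so its counts give no direction for the pathway.

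The remaining lists held few calls. In glutathione synthesis and use, 1 of 7 measured genes passed, the peroxidase Gpx1, which fell by 0.40 in log2 units (SE 0.0799, adjusted p = 0.00164). In GABA synthesis and breakdown 1 of 4 rose, the glutamate decarboxylase Gad2, by 0.77 in log2 units (SE 0.181, adjusted p = 0.00501), and it is also on the interneuron list. Of the 10 measured amino acid and transmitter carriers of other families 0 passed in limma, and 0 had an unadjusted p under 0.05. The peptide transporter Slc15a2 differed by 0.41 (SE 0.520), or by -0.034 without E13 replicate 1 and E16 replicate 3, and Slc15a4 by -0.40 (SE 0.208).

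**Figure D4:**
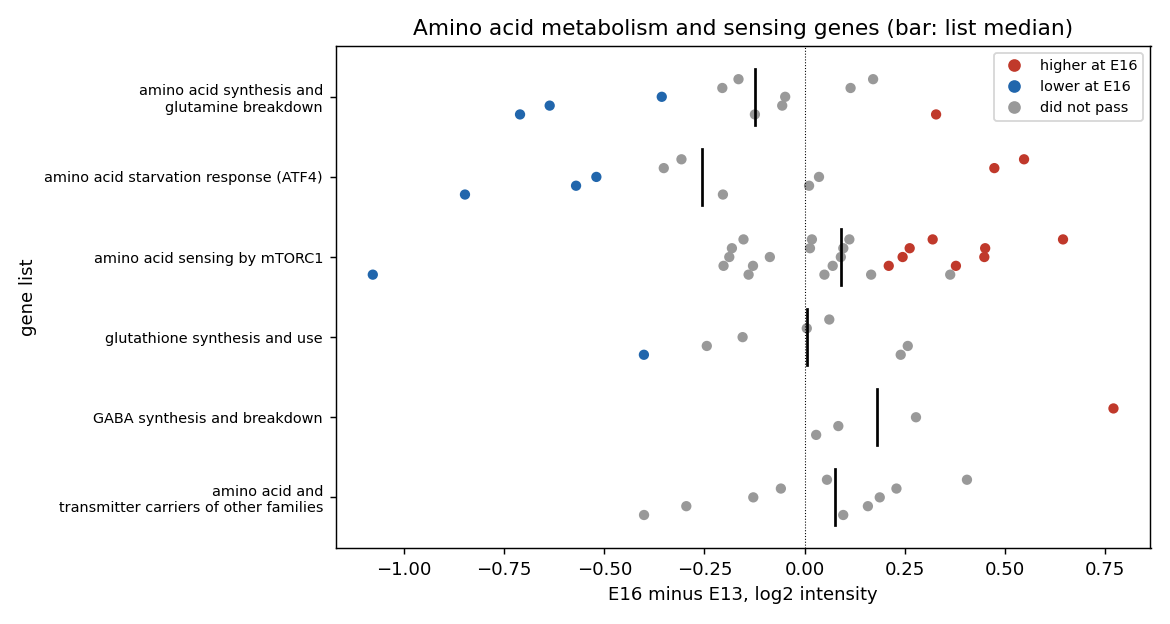
Difference in normalized log2 intensity, E16 minus E13, for each measured gene (dots) of 6 lists around amino acid metabolism, with the list median as a black bar. The mTORC1 list has 8 genes higher and Sesn3 alone lower, and the synthesis list has Phgdh, Psat1 and Shmt2 on its lower side.

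Promoter windows of the genes were searched for motifs of factors known from amino acid shortage or cortical neurogenesis. The windows run from 250 bases before to 50 bases after a gene's start and come from RefSeq on the build GRCm38.p6. Windows of 49 of the 67 genes and 12 of the 15 that passed were counted. Windows of the other transporter genes were not counted, whether or not RefSeq holds them. The shares of transporter windows and of all windows may therefore rest on unlike sets. On both strands, TGATGNAA (the ATF4 composite element) and AGGTGTGA (a T-box element) matched in 0 of those 12 genes. Over the transporter windows counted the ATF4 element matched in 6 of 73 (8.22%), against 3.97% of all 32851 windows. These belong to Slc17a1, Slc1a4, Slc6a21, Slc7a11 and Slc7a7, none of which was called. The T-box element matched in 1 of 73 (1.37%), in Slc6a9, against 1.28% of all windows. The E-box CAGATG, bound by proneural factors, matched for 4 of the 12, namely Slc17a6, Slc43a1, Slc6a17 and Slc7a8. It was present in 5 of their 14 windows, in 14 of the 73 transporter windows counted (19.2%) and in 17.2% of all windows. The genes with a match went in both directions between the stages, Slc6a17 and Slc7a8 higher and Slc43a1 and Slc17a6 lower at E16. A window of Slc7a8, Slc6a17 and Slc43a1 is shown for each because the motif is found before genes that moved apart, with the match in capitals on a 5′ to 3′ run in the direction of the gene. The capitals read CAGATG for Slc7a8 and its reverse complement CATCTG, a match on the opposite strand, for Slc6a17 and Slc43a1. The Slc7a8 window (chr14:54781837-54782136, minus strand) has its match beginning 27 bases before the start, the Slc6a17 window (chr3:107500691-107500990, minus strand) has matches 26 and 15 bases before it, and the Slc43a1 window (chr2:84840073-84840372, plus strand) has one 228 bases before it.
Slc7a8: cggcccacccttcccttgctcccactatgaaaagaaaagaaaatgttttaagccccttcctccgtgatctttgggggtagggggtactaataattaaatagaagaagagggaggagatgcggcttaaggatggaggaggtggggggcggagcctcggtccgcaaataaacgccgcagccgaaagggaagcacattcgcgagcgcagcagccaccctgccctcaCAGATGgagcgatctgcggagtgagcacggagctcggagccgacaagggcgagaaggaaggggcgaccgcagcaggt
Slc6a17: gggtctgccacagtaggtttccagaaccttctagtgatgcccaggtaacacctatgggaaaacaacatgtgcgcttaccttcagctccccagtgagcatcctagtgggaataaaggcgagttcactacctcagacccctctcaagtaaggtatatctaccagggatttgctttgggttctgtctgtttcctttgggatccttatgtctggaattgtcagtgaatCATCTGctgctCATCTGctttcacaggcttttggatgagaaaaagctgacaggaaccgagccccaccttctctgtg
Slc43a1: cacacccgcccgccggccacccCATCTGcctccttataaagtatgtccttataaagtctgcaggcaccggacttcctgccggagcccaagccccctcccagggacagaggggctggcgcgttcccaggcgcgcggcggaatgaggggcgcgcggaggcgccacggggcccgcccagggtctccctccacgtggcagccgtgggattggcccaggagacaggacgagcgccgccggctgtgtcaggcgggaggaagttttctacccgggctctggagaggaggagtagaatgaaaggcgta
These matches describe the letters of the windows. Binding at them was not measured here.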

How the data were processed

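Messenger RNA of sorted basal progenitors was measured on Illumina bead arrays, 5 at E16 and 6 at E13, labelled as biotin cRNA per the labels' protocols. The deposited table held raw probe intensity on a linear scale, not normalized between arrays, with 26.9% to 29.2% of the values of an array below 0, which shows background subtraction ahead of deposit. A detection p-value stood beside each intensity, per the file headers. The authors' deposited value table in log2 was used as an alternative only. The scanner software is not given in the sources used here. Probes were named through a platform table, 34885 with 1 symbol, 18 with several and 10378 unlisted, and an Entrez match to GRCm38.p6 for 34807 probes changed 0 symbols.

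Intensities were background corrected by normexp from the detection p-values, given an offset of 16, quantile normalized and taken to log2 (neqc in limma 3.58.1, R 4.3.3). The brightest kept probe of each of 10568 genes entered lmFit and eBayes with a variance trend, and two-sided p-values were adjusted by Benjamini-Hochberg over all of them. Where no array of a stage detected a probe, its fold is given as a bound ("at least"), the brighter mean against, per array, the higher of its own value and the lowest detected signal. Precision is set by the number of arrays, with a median standard error of 0.126 on the log2 scale. The fit was tested on simulated data. Embryos were treated as independent, although some share a litter. Alternatives covered background, normalization, offset, filter, probe choice, weights, trend, a replicate block and left-out arrays. The genes, lists and tests were chosen with earlier results of these data known. All kept member genes were named. Those that passed are given with the value of each E16 array and the lowest, median and highest E13 value. Up to 4 passing members of each pathway list were named, and Ddit4 was added in the ATF4 list.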

Additional observations from a re-analysis of the deposited data

Results flagged for a closer look

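Among 98 groups of arrays examined, both stages of 49 named genes, 3 held an array far from the others of its stage, where chance gives about 1 in 20 groups. All lay at E13 and none concerned a called transporter. Slc1a4 read 8.82 on E13 replicate 3, with the nearest E13 array at 9.19. Slc7a6os read 8.60 on E13 replicate 6, with the nearest at 8.33. Psat1 read 9.35 on E13 replicate 6, with the nearest at 9.59.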

How the results depend on the processing

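Of the 15 called transporter genes, 11 passed under each of the 24 alternatives that tested them. The other 4 (Slc17a6, Slc6a15, Slc6a17 and Slc38a2) lost the call under 14, 11, 8 and 5 of them, keeping their direction. Of the 18 that did not pass, Slc7a7, Slc38a9, Slc38a1 and Slc7a3 passed under some. The count of higher genes lay between 8 and 11 and that of lower genes between 4 and 6, except that detection at 0.01 on all 11 arrays left 2 lower. That filter tested 21 of the 33 genes and did not test Slc1a2, Slc7a10, Slc43a1 or Slc6a11. The authors' value table held 26 of them and did not test Slc7a10 or Slc6a11. Same-numbered E16 and E13 arrays come from embryos of different stages, and the correlations of their deviations were between -0.1 and 0.143, with 1 of 5 E16 arrays matching its own number best. With the replicate number as a block, which leaves out E13 replicate 6, 10 were higher and 4 lower, and Slc17a6 lost the call (-0.27, adjusted p = 0.0794). Leaving out E13 replicate 4 and E16 replicate 4 gave 10 higher and 5 lower. This choice was made after seeing the data, because they had the highest red cell sums of their stage. It shared 13 of the 15 calls, with Slc6a17 and Slc17a6 lost and Slc38a9 and Slc7a7 gained. In 5 uncalled genes the difference changed sign near 0, and the cause was not tested. Slc3a2 became -0.0047 with median centring, and lay between -0.036 and 0.178 with arrays left out, below 0 without E16 replicate 2. Slc6a6 became 0.024 with the replicate block and lay between -0.077 and 0.040 with arrays left out. Slc6a9 became -0.016 with array weights and lay between -0.016 and 0.177 with arrays left out. Slc7a13 became -0.014 with array weights and lay between -0.0084 and 0.143 with arrays left out. Slc15a2 lay between -0.034 and 0.688 with arrays left out, below 0 without E13 replicate 1 and E16 replicate 3. Slc1a2, Slc7a10 and Slc6a11 were not detected on every array, which limits the precision of their differences.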
